A study of Mus musculus with 4 samples.

Results

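Collagen chains are the gene products that wind around each other into collagen molecules, and they were chosen here as every gene whose symbol is Col, a number, a and a number, the pattern of the collagen alpha chains. This gave 44 genes of 24011 measured. Their RNA was measured in differentiating muscle cells on GeneChip Mouse Gene 2.1 ST arrays, with 2 arrays labelled Rspo1-null and 2 labelled wild-type. The Rspo1-null cells came from mice with a loss-of-function allele of Rspo1, a secreted protein that amplifies Wnt signaling, and the comparison with wild-type cells asks how its absence changes the cells' transcripts. Both genotypes share the strain background C57bl6N/sv129, limb muscle as the tissue, magnetic sorting of satellite cells and 5 passages as primary myoblasts in Ham F10 medium with 20% FBS and 2 ng/ml bFGF. All cells were then kept for 24 h in DMEM with 2% horse serum (HS), which starts differentiation. The loss of Rspo1 is present throughout the animal from the start, so that the cultured cells had also developed and lived without it. The mice were young adults, the sources used here do not give the number of donors per culture, and the study counts heterozygous animals among its controls where the labels name wild-type animals. Its methods also name fewer passages and another FGF dose than the labels, which were followed here. The labels name 2 independent cultures for each genotype, so that p-values measure the spread between these cultures only, and with so few arrays every value has a wide error.

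Collagens are the main structural proteins of the extracellular matrix. Fibrillar collagens form the rope-like fibrils of connective tissue, network-forming type IV collagen carries the basement membrane that wraps each muscle fiber and its satellite cells, and type VI collagen lies between both. Other collagens decorate fibrils, span the cell membrane or release signaling fragments. In skeletal muscle most fibrillar collagen is made by fibroblasts, while muscle cells contribute to the basement membrane and to the contact with nerve and tendon.

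The arrays give log2 values normalized by RMA, and a level of 4.69 was taken as background. It is the level below which 95% of 1370 genes for olfactory or vomeronasal receptors lay, most of which are used by sensory neurons of the nose. Of the 44 chains, 25 had at least 1 genotype mean at or above this level, and 19 had both means below it and are called dim here; 48.89% of all genes were dim. Rspo1 itself had values of 5.29 and 5.33 in the Rspo1-null arrays, against 5.71 and 5.84 in the wild-type arrays. The sources used here do not say whether its probes lie in the deleted part, so that it checks the labels only in part. Xist, the RNA of the inactive X chromosome, was at 10.38 in Rspo1-null 1 and 10.39 in wild-type 2, against 4.07 in Rspo1-null 2 and 4.35 in wild-type 1, where Y-linked transcripts were high. Each genotype therefore holds 1 array with Xist and 1 with Y-linked transcripts. Myotube genes also separated these pairs. All 14 genes of a list of differentiating myocyte markers were lower in both arrays with Xist than in both others, and the mean of the list was 9.61 in Rspo1-null 1 and 10.66 in Rspo1-null 2, against 10.68 in wild-type 1 and 9.34 in wild-type 2. The part of donor sex or of the stage of differentiation in the collagen values was not tested, and each is given beside the values as the pair of arrays concerned. In bulk RNA, fewer cells of a type and less RNA per cell cannot be told apart.

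No collagen chain passed an adjusted p of 0.05 between the Rspo1-null and wild-type arrays in limma, with Benjamini-Hochberg adjustment over all genes, as no gene did (percent called 0, lowest adjusted p 0.0711). At an unadjusted p under 0.05, limma called 1 chain, Col13a1, which is 2.27% of the chains where 3.17% of all genes were called. The values of both genotypes were fully apart, without overlap, in 10 of the 44 chains (22.7%), against 31.2% of all genes. In 2 of these, Col5a2 and Col15a1, the Rspo1-null arrays were higher, and in the other 8, Col11a2, Col4a6, Col6a3, Col6a4, Col9a2, Col16a1, Col13a1 and Col23a1, they were lower, where 12.1% of all genes were higher and 19.1% lower in this way. The methods' one-way ANOVA called 5 of the 44 chains at an unadjusted p under 0.05, Col13a1 and 4 dim ones, where it called 4.74% of all genes. The mean of 29 chains was lower in the Rspo1-null arrays, which is 65.9% where 55.1% of all genes were lower, and this split turned with the scaling: after median centring 45.5% of the chains and 44.8% of all genes were lower, and after cyclic loess 40.9% and 48.9%. Among the 25 chains above background, 12 means were higher and 13 lower, and their median log2 difference was -0.02, against 0.03 for all genes above background. The median residual SD between cultures of 1 genotype was 0.18 over all 44 chains, as over all genes, and 0.33 over the chains above background, against 0.22 over all genes above background. The plot of all chains by class shows that few pairs of colors separate and that most of the type VI chains and several of the fibril-associated chains lie left of the background line.

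**Figure D1:**
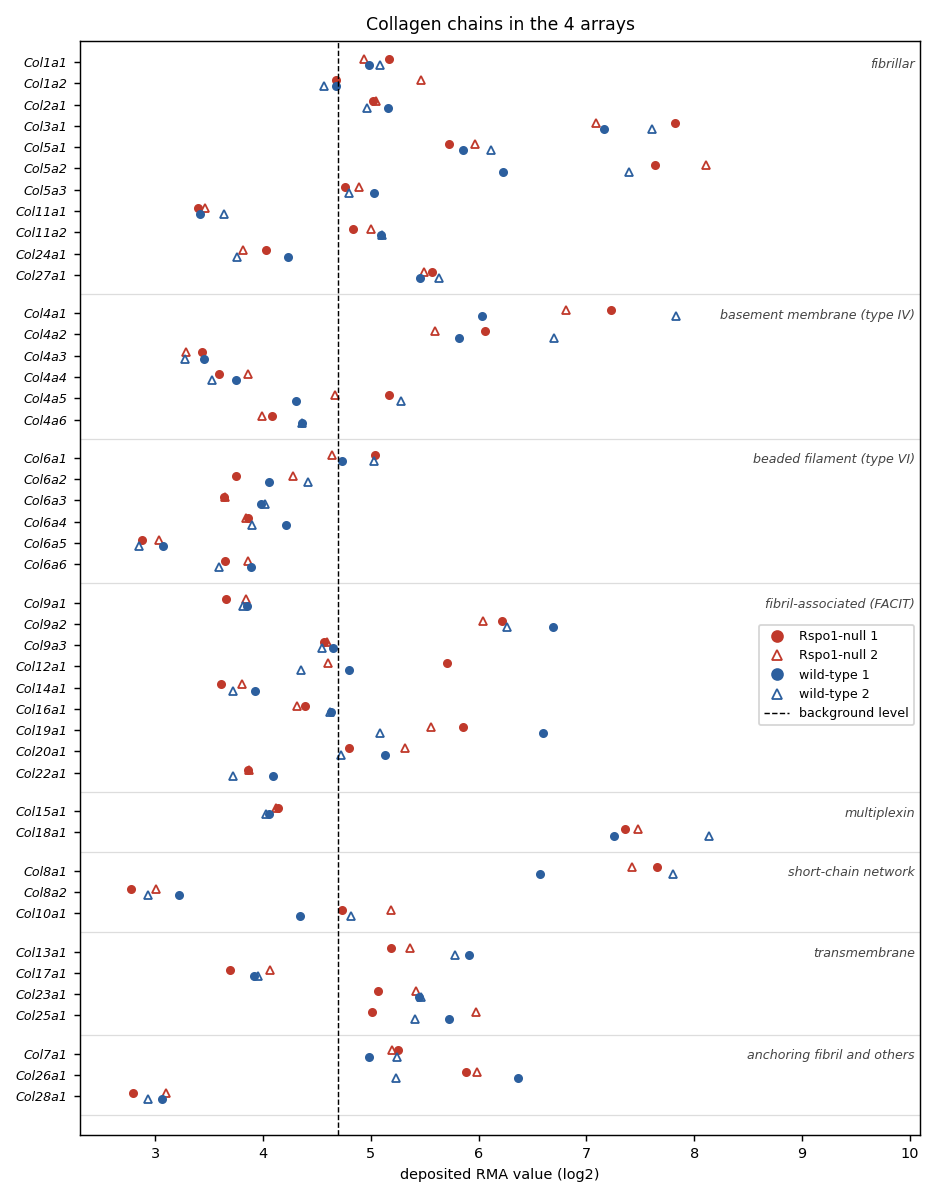
The 44 collagen chains by structural class, with the RMA value (log2) of each array on the horizontal axis, Rspo1-null in red and wild-type in blue, filled circles for replicate 1 and open triangles for replicate 2. The dashed line is the background level of 4.69, and 25 chains have at least 1 genotype mean at or above it. Values of different chains come from different probes and are not comparable with each other.

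The chain that passed the unadjusted threshold was Col13a1, a transmembrane collagen that muscle fibers place at the neuromuscular and myotendinous junctions. It had values of 5.19 and 5.37 in Rspo1-null 1 and 2, against 5.91 and 5.78 in wild-type 1 and 2. Both Rspo1-null arrays lay below both wild-type arrays, and all 4 lay above background. The log2 difference, Rspo1-null minus wild-type as throughout, was -0.57 (standard error 0.16), with an unadjusted p of 0.0177 and an adjusted p of 0.999 from limma. It was -0.59 between the arrays with Xist and -0.54 between those with Y-linked transcripts, so that Col13a1 differed by a like amount in each pair. With the pair as a block, limma gave an unadjusted p of 0.0162 and an adjusted p of 0.814, and Col13a1 was again the 1 chain called, where 5.35% of all genes were. The unadjusted call was lost without Rspo1-null 1 (-0.48, unadjusted p = 0.0992 in limma) and without wild-type 1 (-0.50, unadjusted p = 0.0722 in limma).

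Col13a1 lies on the minus strand of chromosome 10. RefSeq promoter windows, the 250 bases before a start, were read on both strands for short motifs of general promoter factors and for those of the muscle and Wnt factors. The TATA box was searched as the letters TATAAA. For the CCAAT box the name gives the letters searched. The GC box, to which Sp1 binds, was searched as GGGCGG. The E-box, to which MyoD and Myogenin bind, was searched as CANNTG, where N is any base. The TCF/LEF motif of canonical Wnt signaling was searched as CTTTGAT. Of the 44 chains, 35 had such a window. The stretch of the Col13a1 window outside the annotated gene, from 250 to 99 bases before the start, is printed because this is the called chain; it is chr10:61979207-61979358 of GRCm38.p6, and the capitals mark a TATA box and an E-box.
Col13a1: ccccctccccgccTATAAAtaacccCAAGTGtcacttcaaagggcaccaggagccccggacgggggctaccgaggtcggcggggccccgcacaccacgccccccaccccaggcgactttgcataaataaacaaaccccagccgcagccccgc
The whole Col13a1 window held neither the TCF/LEF nor the GC box letters. Over 38 windows of chains, E-box letters were found in 19, against 66.2% of 32851 windows of all genes, and GC box letters in 22 (57.9%), against 32.7%. TATA box letters were found in 5 chain windows (13.2%), against 12.4%, CCAAT box letters in 13 (34.2%), against 33.8%, and TCF/LEF letters in 1 (2.63%), against 3.21%. These matches describe the letters and not binding.

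The other transmembrane chains above background were Col23a1 and Col25a1. Col23a1 had values of 5.07 and 5.42 in the Rspo1-null arrays, against 5.45 and 5.46 in the wild-type arrays, and the difference of -0.21 (standard error 0.18, unadjusted p = 0.294 in limma) rested mainly on Rspo1-null 1. Col25a1, which muscle needs for the ingrowth of motor axons, had 5.01 and 5.97 in the Rspo1-null arrays, against 5.73 and 5.41 in the wild-type arrays. Here the Rspo1-null arrays held both the lowest and the highest value, and the difference was -0.08 (standard error 0.36). Col17a1, a chain of hemidesmosomes in skin, was dim.

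Among the fibrillar chains, 9 of 11 lay above background, and 0 passed the unadjusted threshold in limma. Col5a2, a chain of type V collagen, which starts and limits the growth of type I fibrils, had the highest difference of all chains. Its values were 7.64 and 8.11 in Rspo1-null 1 and 2, against 6.23 and 7.40 in wild-type 1 and 2. Both Rspo1-null arrays were higher than both wild-type arrays, and the wild-type arrays lay far from each other. The difference was 1.06 (standard error 0.44, unadjusted p = 0.0631 in limma). It was 0.24 between the arrays with Xist and 1.88 between those with Y-linked transcripts. Without wild-type 2 it was 1.65 with an unadjusted p of 0.00714 in limma, and without wild-type 1 it was 0.48 with an unadjusted p of 0.179, so that the size of this difference turned on the wild-type array set against it. The partner chains of type V collagen did not share this order. Col5a1 had 5.72 and 5.96 in the Rspo1-null arrays, against 5.86 and 6.11 in the wild-type arrays (-0.14, standard error 0.18), and Col5a3 had 4.76 and 4.89 in the Rspo1-null arrays, against 5.03 and 4.79 in the wild-type arrays (-0.09, standard error 0.17).

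Col3a1, the chain of type III collagen, lies 24.6 kb from Col5a2 on chromosome 1. It had values of 7.82 and 7.09 in the Rspo1-null arrays, against 7.16 and 7.61 in the wild-type arrays, and a difference of 0.07 (standard error 0.32). Both arrays with Xist were higher than both others for Col3a1, a division that runs across the genotypes and differs from that of its neighbor. Type I collagen is made of Col1a1 and Col1a2. Col1a1 had 5.16 and 4.93 in the Rspo1-null arrays, against 4.98 and 5.08 in the wild-type arrays (0.02, standard error 0.16). Col1a2 had 4.67 and 5.47 in the Rspo1-null arrays, against 4.68 and 4.56 in the wild-type arrays. Only Rspo1-null 2 lay above background for Col1a2, so that the difference of 0.45 (standard error 0.30, unadjusted p = 0.195 in limma) rested on a single array. With the wild-type arrays set at the background level it was 0.375, where Rspo1-null 1 kept its value below background. Without Rspo1-null 2 it was 0.054.

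The remaining fibrillar chains are best known from cartilage and other tissues. Col11a2 had values of 4.83 and 5.00 in the Rspo1-null arrays, against 5.09 and 5.10 in the wild-type arrays (-0.18, standard error 0.15, unadjusted p = 0.291 in limma), without overlap. Col2a1 had 5.02 and 5.05 in the Rspo1-null arrays, against 5.15 and 4.96 in the wild-type arrays, and Col27a1 had 5.57 and 5.49 in the Rspo1-null arrays, against 5.45 and 5.63 in the wild-type arrays. Both had a difference of -0.02 (standard error 0.15), which became positive after median centring and after cyclic loess. Col11a1 and Col24a1 were dim.

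Type IV collagen of the basement membrane is assembled mainly from Col4a1 and Col4a2, whose genes lie head to head on chromosome 8 and overlap by 85 bases in the RefSeq annotation. The arrays with Xist and the others parted for Col4a1 but the genotypes did not. Col4a1 had values of 7.23 and 6.81 in the Rspo1-null arrays, against 6.03 and 7.83 in the wild-type arrays. The wild-type arrays were the lowest and the highest of the 4, and the Rspo1-null arrays lay between them. Its difference was 0.09 (standard error 0.62, unadjusted p = 0.896 in limma), -0.61 between the arrays with Xist and 0.78 between those with Y-linked transcripts. The direction turned with the wild-type array kept: without wild-type 1 it was -0.81 (unadjusted p = 0.0455 in limma), and without wild-type 2 it was 0.98 (unadjusted p = 0.0269 in limma). Col4a2 had 6.06 and 5.60 in the Rspo1-null arrays, against 5.81 and 6.70 in the wild-type arrays, with wild-type 2 the highest for both chains of the pair. Its difference was -0.43 (standard error 0.36, unadjusted p = 0.288 in limma), and without wild-type 1 it was -0.87 (unadjusted p = 0.0456 in limma).

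Col4a5 and Col4a6 lie on the X chromosome, divided by 1274 bases and read in opposite directions. Col4a5 had values of 5.17 and 4.67 in the Rspo1-null arrays, against 4.31 and 5.28 in the wild-type arrays, with both arrays with Xist above background and both others below it. Its difference was 0.12 (standard error 0.39). Col4a6 was dim, at 4.08 and 3.99 in the Rspo1-null arrays and 4.36 and 4.36 in the wild-type arrays. Col4a3 and Col4a4, the chains of the kidney filter, were dim too. All 3 type IV chains above background, Col4a1, Col4a2 and Col4a5, were higher in both arrays with Xist than in both others. Over all 44 chains the arrays with Xist did not overlap the others in 24 (54.5%), against 42% of all genes, with 9 chains higher and 15 lower, against 19.8% and 22.2% of all genes. Among the 25 chains above background 9 were higher in this pair and 6 lower, where 27.3% of all genes above background were higher and 20.8% lower in this way. In 5 of these 25 chains (20%) the genotypes did not overlap, against 28.7% of all genes above background. The chains were thus divided more often by the pair of arrays than by the genotype, as were all genes, with 42% against 31.2%.

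**Figure D2:**
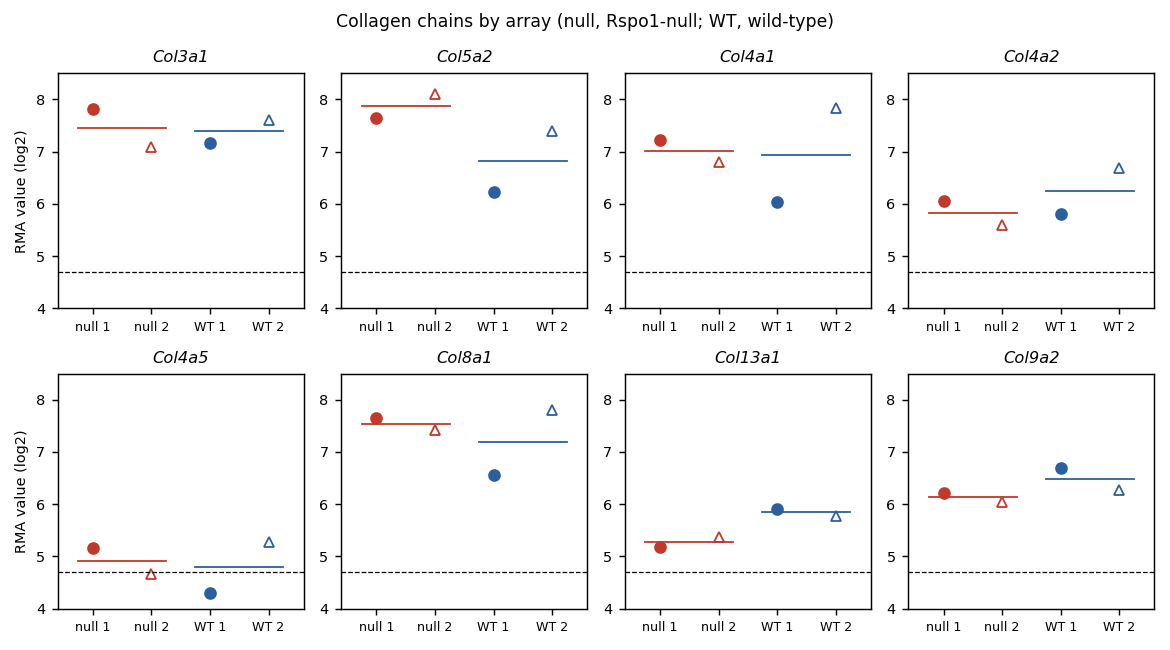
RMA values (log2, vertical axis) of 8 collagen chains in Rspo1-null 1 and 2 (red) and wild-type 1 and 2 (blue), with the genotype mean as a line and the background level of 4.69 as a dashed line. For Col3a1, Col4a1, Col4a2, Col4a5 and Col8a1, Rspo1-null 1 and wild-type 2, the arrays with Xist, are higher than the others, while for Col13a1 both Rspo1-null arrays, at 5.19 and 5.37, lie below both wild-type arrays, at 5.91 and 5.78.

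Type VI collagen is a beaded filament of the muscle matrix, made by interstitial fibroblasts in particular, and loss of its chains causes muscular dystrophy. Of its 6 chains, only Col6a1 lay above background, with values of 5.04 and 4.64 in the Rspo1-null arrays, against 4.73 and 5.02 in the wild-type arrays. Its difference of -0.04 (standard error 0.21) became positive after median centring and after cyclic loess. Col6a2 and Col6a3, with which it assembles, and Col6a4, Col6a5 and Col6a6 were dim. Col6a3 had 3.63 and 3.64 in the Rspo1-null arrays, against 3.98 and 4.01 in the wild-type arrays (-0.36, standard error 0.14, unadjusted p = 0.0545 in limma), all below background, where a difference cannot be read as one of expression.

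Fibril-associated collagens (FACITs) sit on the surface of fibrils. Of 9 chains, 4 lay above background and 5 (Col9a1, Col9a3, Col14a1, Col16a1 and Col22a1) were dim, among them Col22a1, a chain of the myotendinous junction. Col9a2, a type IX chain that is best known from cartilage, had values of 6.22 and 6.04 in the Rspo1-null arrays, against 6.69 and 6.26 in the wild-type arrays. The Rspo1-null arrays were both lower, although Rspo1-null 1 and wild-type 2 lay close together. The difference was -0.35 (standard error 0.21, unadjusted p = 0.159 in limma), -0.04 between the arrays with Xist and -0.65 between those with Y-linked transcripts. The promoter window of Col9a2, the plus strand of chr4:121039316-121039565 in GRCm38.p6, is printed as the only chain window with the TCF/LEF letters, in the study of a Wnt amplifier. Capitals mark TCF/LEF, E-box and GC box letters.
Col9a2: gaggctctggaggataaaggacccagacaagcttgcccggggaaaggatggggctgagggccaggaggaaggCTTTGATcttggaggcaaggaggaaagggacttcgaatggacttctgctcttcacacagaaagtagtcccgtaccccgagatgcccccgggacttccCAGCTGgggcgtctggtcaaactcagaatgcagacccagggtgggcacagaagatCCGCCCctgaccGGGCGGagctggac
The other FACIT chains above background crossed the genotypes. Col12a1, which coats type I fibrils in tendon and muscle, had values of 5.71 and 4.60 in the Rspo1-null arrays, against 4.79 and 4.35 in the wild-type arrays, where Rspo1-null 1 stood apart. Its difference was 0.58 (standard error 0.41, unadjusted p = 0.223 in limma), and without Rspo1-null 2 it was 1.14. Rspo1-null 2 and wild-type 2 lay below background for Col12a1, as did the wild-type mean of 4.57. Col19a1, which was first cloned from a human muscle tumor, had 5.85 and 5.56 in the Rspo1-null arrays, against 6.60 and 5.08 in the wild-type arrays. The wild-type arrays again held both extremes, and the difference was -0.14 (standard error 0.53) with all arrays and -0.89 (unadjusted p = 0.0221 in limma) without wild-type 2. Col20a1 had 4.80 and 5.32 in the Rspo1-null arrays, against 5.13 and 4.72 in the wild-type arrays (0.14, standard error 0.26).

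The multiplexin Col18a1 is a heparan sulfate collagen of basement membranes, whose C-terminal end is released as endostatin. It had values of 7.36 and 7.48 in the Rspo1-null arrays, against 7.25 and 8.14 in the wild-type arrays. Wild-type 2 was higher than the rest, and the difference was -0.27 (standard error 0.32, unadjusted p = 0.438 in limma), or -0.72 without wild-type 1 (unadjusted p = 0.0245 in limma). The related Col15a1 was dim. Col8a1, a short chain that forms hexagonal networks around vessels, had 7.66 and 7.42 in the Rspo1-null arrays, against 6.57 and 7.81 in the wild-type arrays. As for Col4a1, the Rspo1-null arrays lay between the wild-type arrays, and the difference was 0.35 (standard error 0.44, unadjusted p = 0.46 in limma), or 0.97 without wild-type 2 (unadjusted p = 0.0139 in limma). Col10a1, the short chain of hypertrophic cartilage, had 4.73 and 5.18 in the Rspo1-null arrays, against 4.34 and 4.81 in the wild-type arrays (0.38, standard error 0.26, unadjusted p = 0.204 in limma). Wild-type 1 lay below background for Col10a1, and its partner in class Col8a2 was dim. Col7a1, the anchoring fibril of skin, had 5.25 and 5.19 in the Rspo1-null arrays, against 4.98 and 5.24 in the wild-type arrays (0.11, standard error 0.17). Col26a1 had 5.88 and 5.99 in the Rspo1-null arrays, against 6.37 and 5.23 in the wild-type arrays (0.13, standard error 0.40), and 0.70 without wild-type 1 (unadjusted p = 0.0246 in limma). Col28a1 was dim.

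Setting the arrays with like sex-linked transcripts against each other gave each chain a pair of differences. They had opposite signs in 25 of the 44 chains, against 45.6% of all genes, and both were higher in the Rspo1-null array for 6 and lower for 13. Among the 25 chains above background the signs were opposite in 15, against 44.8% of all genes above background. In these 25, both were higher for 4 and lower for 6. The shares of all genes with both differences higher or both lower were not counted. The plot of the differences shows both values, and for Col13a1 they nearly coincide while for Col4a1, Col12a1, Col19a1 and Col18a1 they fall on either side of 0. The median absolute gap between arrays over the chains above background was 0.212 between Rspo1-null 1 and wild-type 2 and 0.219 between Rspo1-null 2 and wild-type 1, against 0.293 between both Rspo1-null arrays and 0.408 between both wild-type arrays. By this gap, arrays of opposite genotype but like sex-linked transcripts lay closer than arrays of 1 genotype. Over all genes above background this held in part, with a gap of 0.161 between Rspo1-null 1 and wild-type 2 and of 0.259 between Rspo1-null 2 and wild-type 1, against 0.238 between both Rspo1-null arrays and 0.279 between both wild-type arrays. Pearson's r over all 44 chains, which are not independent, gave another order in part. It was highest between Rspo1-null 1 and wild-type 2, at 0.961, and lowest between both wild-type arrays, at 0.908. Between Rspo1-null 2 and wild-type 1 it was 0.926, against 0.958 between both Rspo1-null arrays.

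**Figure D3:**
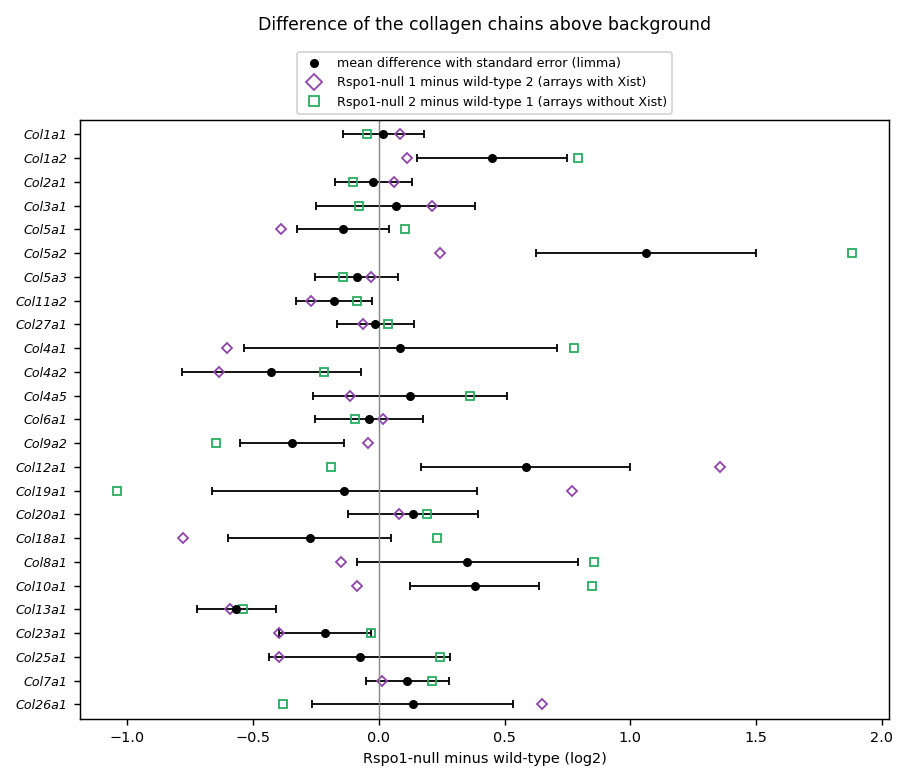
Log2 difference, Rspo1-null minus wild-type (horizontal axis), of the 25 collagen chains above background, with the limma mean and standard error in black, the difference between the arrays with Xist as purple diamonds and that between the other arrays as green squares. The mean difference of Col13a1 is -0.57 with pair values of -0.59 and -0.54, and that of Col5a2 is 1.06 with pair values of 0.24 and 1.88.

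Other cell types in the cultures were read from lists of markers. Of 14 fibroblast markers measured, 4 (Cd34, Thy1, Gsn and Fbln1) lay above background and 10 were dim, among them Dcn, Lum and Pdgfra. Lum had values of 2.87 and 2.88 in the Rspo1-null arrays, against 2.72 and 2.78 in the wild-type arrays, and Pdgfra had 3.27 and 2.94 in the Rspo1-null arrays, against 2.97 and 2.93 in the wild-type arrays. The mean of the list was 4.50 and 4.15 in the Rspo1-null arrays, against 4.23 and 4.17 in the wild-type arrays, with Rspo1-null 1 the highest. Cd34, which also marks quiescent satellite cells and vessels, had 7.22 and 4.85 in the Rspo1-null arrays, against 4.60 and 5.66 in the wild-type arrays. It was higher in both arrays with Xist, as were Col3a1, Col4a1, Col4a2 and Col4a5. Of the 14 fibroblast markers this held for 3, Cd34, Gsn and Fbln1, while 4 had the reverse order. Of the 10 myoblast and satellite cell markers, Pax7, Myf5 and Vcam1 shared the order of Cd34, and 4 had the reverse order. Pax7 had 8.17 and 7.10 in the Rspo1-null arrays, against 6.38 and 7.85 in the wild-type arrays. Myf5 had 8.21 and 6.81 in the Rspo1-null arrays, against 5.91 and 8.25 in the wild-type arrays. The part of the markers of either list in the collagen values was not tested. Of the other lists, 2 of 8 tendon markers (Scx and Egr1), 6 of 10 smooth muscle and pericyte markers, 1 of 8 endothelial (Vwf), 1 of 6 immune (Cd68), 1 of 4 Schwann cell (Ncam1) and 1 of 6 adipocyte markers (Pparg) lay above background. Against this, 9 of 10 myoblast and satellite cell markers and all 14 differentiating myocyte markers did, so that the cultures carried the markers of their labelled cell type. Of 80 cell type markers measured, 2 passed the unadjusted threshold between the genotypes, which is 2.5% against 3.17% of all genes: the tendon gene Mkx (0.49, unadjusted p = 0.0202 in limma) and the immune gene Adgre1 (-0.49, unadjusted p = 0.0321 in limma), both with all 4 values below background.

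Enzymes that make secreted procollagen into stable fibrils were taken next. Of 14 measured genes of procollagen cleavage and crosslinking, 3 were higher and 2 lower at an unadjusted p under 0.05 in limma, where 1.2% of all genes were higher and 1.97% lower, and none passed the adjusted threshold (adjusted p = 0.999 for each). After median centring 4 were higher and 1 lower, and after cyclic loess 3 and 1. Bmp1, the proteinase that removes the C-terminal propeptide of fibrillar procollagens, had values of 7.13 and 6.79 in the Rspo1-null arrays, against 6.26 and 6.36 in the wild-type arrays (0.65, standard error 0.18, unadjusted p = 0.0191 in limma). Both Rspo1-null arrays were higher. Pcolce, which enhances this cleavage, had 9.63 and 9.94 in the Rspo1-null arrays, against 9.13 and 9.42 in the wild-type arrays (0.51, standard error 0.20), also without overlap, but with an unadjusted p of 0.0517 in limma. The lysyl oxidases, which crosslink collagen and elastin, gave differences of both signs. Loxl1 had 7.34 and 7.79 in the Rspo1-null arrays, against 6.93 and 6.90 in the wild-type arrays (0.65, standard error 0.20, unadjusted p = 0.0276 in limma). Loxl3 had 6.73 and 6.36 in the Rspo1-null arrays, against 5.38 and 6.02 in the wild-type arrays (0.85, standard error 0.28, unadjusted p = 0.0323 in limma). Loxl4 had 4.94 and 5.03 in the Rspo1-null arrays, against 5.52 and 5.38 in the wild-type arrays (-0.47, standard error 0.15, unadjusted p = 0.0293 in limma). The genotypes did not overlap in any of these 3 genes. Lox had 6.15 and 5.55 in the Rspo1-null arrays, against 6.03 and 6.68 in the wild-type arrays, with overlap (-0.51, standard error 0.32, unadjusted p = 0.182 in limma). It differed by -0.53 between the arrays with Xist and by -0.48 between the others, and with the pair as a block its unadjusted p was 0.0234 in limma. The crosslinking transglutaminase Tgm2, the other gene that was lower, had all 4 values below background. When 1 array was left out, the calls on Bmp1, Loxl1 and Loxl4 were each lost in 3 of 4 fits and that on Loxl3 in 2 of 4, with unadjusted p-values of up to 0.0978, 0.122, 0.132 and 0.139 in limma.

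In the cells' folding machinery for procollagen, 18 of 20 measured genes lay above background and 0 passed the unadjusted threshold in limma, with a median difference of 0.20, 13 means higher and 7 lower. Lower means were thus 35% of this list, against 55.1% of all genes and 44.2% of those above background, and 20% after median centring and 30% after cyclic loess. Ppib, a prolyl isomerase of collagen folding, had values of 10.78 and 10.87 in the Rspo1-null arrays, against 10.01 and 10.58 in the wild-type arrays (0.53, standard error 0.23). Sec24d, of the coat that exports procollagen from the endoplasmic reticulum, had 7.51 and 8.27 in the Rspo1-null arrays, against 7.49 and 6.97 in the wild-type arrays (0.66, standard error 0.33), and Fkbp14, another prolyl isomerase, had 5.96 and 5.82 in the Rspo1-null arrays, against 4.87 and 5.78 in the wild-type arrays (0.57, standard error 0.33). In all 3 both Rspo1-null arrays were higher, by as little as the gap between 7.51 and 7.49. With the pair of arrays as a block, Sec24d had an unadjusted p of 0.0122 in limma, as the 1 folding gene called. Crtap, a partner of prolyl 3-hydroxylase, had overlapping genotypes (0.42, standard error 0.45).

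Receptors and degrading enzymes were measured next to the chains. Of 12 collagen receptors, 1 passed the unadjusted threshold in limma, where 3.17% of all genes did. Ddr2, a tyrosine kinase that is switched on by fibrillar collagen, had values of 7.45 and 7.05 in the Rspo1-null arrays, against 6.28 and 6.65 in the wild-type arrays. Both Rspo1-null arrays were higher, and the difference was 0.78 (standard error 0.23, unadjusted p = 0.0203 and adjusted p = 0.999 in limma), 0.80 between the arrays with Xist and 0.76 between those with Y-linked transcripts. This call too was lost without Rspo1-null 1 (0.58, unadjusted p = 0.0978 in limma) and without wild-type 1 (0.60, unadjusted p = 0.092 in limma). Its relative Ddr1 had 7.81 and 8.60 in the Rspo1-null arrays, against 7.72 and 7.69 in the wild-type arrays (0.50, standard error 0.29). Mrc2, which takes up collagen fragments, had a difference of 0.69 (standard error 0.38) and Adgrg1, a receptor of type III collagen, of -0.12 (standard error 0.55), both with overlapping genotypes. None of the 9 measured collagenases and gelatinases passed the unadjusted threshold in limma. Mmp14, a collagenase of the cell membrane, had 8.24 and 7.67 in the Rspo1-null arrays, against 6.93 and 7.60 in the wild-type arrays (0.69, standard error 0.32, unadjusted p = 0.0882 in limma), and 0.64 and 0.75 within the pairs of arrays, with an unadjusted p of 0.00834 in limma with the pair as a block. The gelatinase Mmp2 had 6.99 and 4.68 in the Rspo1-null arrays, against 4.44 and 5.48 in the wild-type arrays, higher in both arrays with Xist, as was the membrane proteinase Mmp16. For both genes, both arrays with Y-linked transcripts lay below background. Fibril-binding proteins were mostly dim, with 4 of 17 above background and 0 past the unadjusted threshold in limma. Fn1, the fibronectin on which cells lay down collagen, had 10.71 and 9.25 in the Rspo1-null arrays, against 6.69 and 9.69 in the wild-type arrays, where wild-type 1 stood far below the rest (1.79, standard error 1.10, unadjusted p = 0.171 in limma). It differed by 1.02 between the arrays with Xist and by 2.56 between the others, and with the pair as a block its unadjusted p was 0.0105 in limma. Bgn, the proteoglycan biglycan, had 11.32 and 9.37 in the Rspo1-null arrays, against 10.27 and 7.82 in the wild-type arrays (1.30, standard error 1.04). It differed by 3.50 between the arrays with Xist and by -0.90 between the others. Thbs1 and Ogn had differences of 0.33 and 0.29 with overlapping genotypes.

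**Figure D4:**
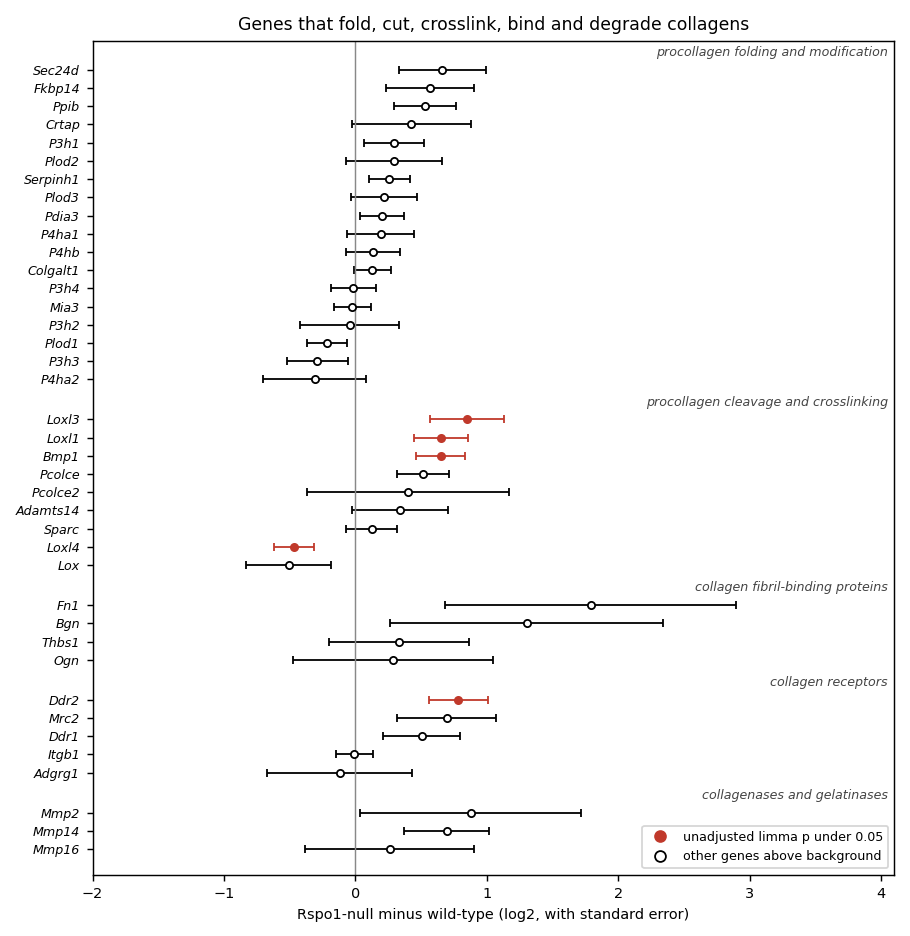
Log2 difference, Rspo1-null minus wild-type (horizontal axis, with the limma standard error), of the genes above background that fold, cleave, crosslink, bind, sense and degrade collagens. Filled red points passed an unadjusted limma p of 0.05, Loxl3, Loxl1, Bmp1 and Ddr2 with differences of 0.85, 0.65, 0.65 and 0.78 and Loxl4 with -0.47; open points did not, and none passed an adjusted p of 0.05.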

How the data were processed

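RNA of 4 cultures was hybridised to 4 arrays, grouped by the genotype and number in their labels. For each array the authors deposited log2 values of gene signals after RMA, and the tools in the submitters' notes, RMA and Partek, carry no version. Of 24973 rows, 24015 received a symbol from the array's annotation and 958 were not named here. Where several rows shared a symbol, as for 4 symbols, the brightest was used. RMA makes the arrays' distributions alike, so that a shift of all genes would not be seen, and it compresses differences of dim genes. Array medians were 4.64 and 4.62 in Rspo1-null 1 and 2, against 4.70 and 4.67 in wild-type 1 and 2.

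The genotypes were compared with limma 3.58.1 in R 4.3.3, with no block, as the methods' one-way ANOVA has none, with Benjamini-Hochberg adjustment over 24011 genes. The fit was tested on simulated data. All chains with at least 1 genotype mean at or above background were described, the others by name. From each other list up to 4 genes per direction with an unadjusted p under 0.05 were named, and from the pathway lists the up to 4 largest differences above background. Lox and single marker genes outside this rule (such as Lum, Pdgfra and Cd34) were chosen after their values were seen. For Col1a2 a second difference set the wild-type arrays, both below background, at the background level. Gene coordinates and promoter windows came from RefSeq, GRCm38.p6, in which all 44 chains were matched by gene number. The members and lists were chosen with earlier results of these data known. The 13 alternatives covered scaling, the variance model, blocks, dim genes, repeated symbols, the methods' one-way ANOVA and each array left out. Same-numbered arrays did not deviate together (correlation of deviations -0.358), so that the numbers were not used to pair them.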

Additional observations from a re-analysis of the deposited data

How the results depend on the processing

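No gene passed an adjusted p of 0.05 in any of the 13 alternatives. In the fits on all 4 arrays, the count of chains past an unadjusted p of 0.05 stayed at 1 apart from the methods' one-way ANOVA. The ANOVA called 5 chains (Col13a1, Col15a1, Col6a3, Col4a6 and Col16a1, all but Col13a1 dim), where it called 4.74% of all genes. For the fits that left out 1 array, which keep a lone array of 1 genotype, the ranges of the differences are given below. With the replicate block the called chain was Col5a2 (unadjusted p = 0.0207 in limma) and 400 genes were called in all, against 760 without it. Col13a1 then had an unadjusted p of 0.0511 in limma. Of the pathway lists this block called Bgn, Mrc2, Bmp1, Pcolce and the dim Aspn. Bgn had an unadjusted p of 0.00702 and Fn1 of 0.235 in limma, so that the genes called depended on the block. The numbers only name the arrays. With the pair of sex-linked transcripts as a block, known from earlier results of these data, 1284 genes were called and Fn1, Sec24d, Mmp14 and Lox passed the unadjusted threshold besides the genes called without it in their lists (adjusted p = 0.814 in limma for each), with dim genes left out 280, with the methods' one-way ANOVA 1139, and with 1 array left out 540 to 1711. The median difference of the chains above background lay between -0.10 and 0.067 when 1 array was left out, and was 0.038 after median centring and 0.023 after cyclic loess. Of the 25 chains above background, 9 kept their sign in every alternative. Signs turned after median centring for Col2a1 (0.031), Col6a1 (0.013) and Col27a1 (0.038). They also turned after cyclic loess for Col2a1 (0.030), Col6a1 (0.023) and Col27a1 (0.0057). Median centring moves the differences of all genes by the same amount, and the median over all genes went from -0.026 to 0.027. The cause of the turns after cyclic loess was not tested. When 1 array was left out, the difference ranged from -0.10 to 0.13 for Col1a1, -0.12 to 0.074 for Col2a1, -0.30 to 0.44 for Col3a1, -0.21 to 0.031 for Col5a3 and -0.10 to 0.073 for Col27a1. It ranged from -0.81 to 0.98 for Col4a1, -0.87 to 0.014 for Col4a2, -0.36 to 0.61 for Col4a5 and -0.24 to 0.16 for Col6a1. It ranged from -0.018 to 0.24 for Col7a1, -0.27 to 0.97 for Col8a1, -0.72 to 0.17 for Col18a1, -0.89 to 0.62 for Col19a1, -0.12 to 0.40 for Col20a1, -0.56 to 0.40 for Col25a1 and -0.43 to 0.70 for Col26a1. Of the other genes, it ranged from -0.10 to 0.95 for Crtap, -0.40 to 1.06 for Thbs1, -0.59 to 1.17 for Ogn, -0.91 to 0.67 for Adgrg1, -0.28 to 2.03 for Mmp2 and -0.66 to 1.18 for Mmp16. In these fits the lone array of a genotype was assumed to vary like the other genotype's. Signal over background limits the 19 dim chains, whose values of 2.77 to 4.65 cannot be read as levels.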

Other observations

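Genes with collagen-like domains that are no collagen chains were looked up after the values of the chains had been seen. None of them passed the unadjusted threshold in limma. Cthrc1, a secreted protein of repairing tissue, had values of 7.60 and 5.51 in the Rspo1-null arrays, against 6.01 and 6.42 in the wild-type arrays (0.34, standard error 0.72). Both arrays with Xist, Rspo1-null 1 and wild-type 2, were higher than both others, as for Col3a1 and Col4a1. Colq, the collagen tail that anchors acetylcholinesterase at the neuromuscular junction, had 4.86 and 5.08 in the Rspo1-null arrays, against 5.39 and 4.79 in the wild-type arrays (-0.12, standard error 0.25). C1qtnf3, which belongs to the C1q and TNF related proteins, had 8.74 and 9.83 in the Rspo1-null arrays, against 9.13 and 9.22 in the wild-type arrays (0.11, standard error 0.38). Colec12, a scavenger receptor with a collagen stalk, had 5.28 and 4.63 in the Rspo1-null arrays, against 5.71 and 4.85 in the wild-type arrays (-0.32, standard error 0.38). Emid1, Gldn and Marco had both genotype means below background. Gldn was higher in both Rspo1-null arrays, at 3.86 and 3.80, than in both wild-type arrays, at 3.64 and 3.73, all below background.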
